A study of Homo sapiens with 12 samples.

Results

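The genes described here are 9 components of the type I interferon pathway, namely the receptor chains IFNAR1 and IFNAR2, the transcription factors STAT2, IRF9, IRF1, IRF3 and IRF7, and the inhibitors SOCS1 and USP18. They were picked by symbol from the 60708 genes of both count tables, and all 9 were found in each table. RNA was sequenced from wild-type HCT116 cells, an established human colorectal carcinoma line grown in RPMI1640 with 10% fetal bovine serum, after 24 h of treatment. The 4 groups were cells given oligomycin A (OA), which blocks the mitochondrial ATP synthase, cells given tunicamycin (TN), which blocks N-linked glycosylation and stresses the endoplasmic reticulum, and a separate set of DMSO controls for each stressor (OActrl and TNctrl). Every group held 3 libraries described as biological replicates and numbered 1 to 3, which gave 12 libraries in all. The labels give 5 µg/mL for both stressors, whereas the methods of the study state a higher concentration of OA, so the OA dose is uncertain. All values come from 1 cell line, so they describe HCT116 cells only. Each stressor was compared with its own DMSO controls, and the TN and TNctrl libraries numbered 2 and 3 were also set beside those numbered 1.

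Type I interferons bind a receptor made of IFNAR1 and IFNAR2, whose associated kinases JAK1 and TYK2 phosphorylate STAT proteins. STAT2 and IRF9 belong to a complex, ISGF3, that binds interferon-stimulated response elements (ISRE) and switches on antiviral genes, while STAT dimers bind gamma-activated sites (GAS). IRF3 and IRF7 act upstream, where they switch on the interferon genes after viral or misplaced nucleic acid is sensed in a cell. IRF1 is itself induced by interferon and by inflammatory signals. SOCS1, which inhibits the JAK kinases, and USP18, which blocks signalling at IFNAR2 and removes ISG15 from proteins, are induced by the pathway and damp it.

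The windows of 250 bases before the transcription start that hold the letters of an ISRE core or a GAS are shown first, since these are the elements through which the pathway acts on its own genes. RefSeq windows (GRCh38.p14) were matched by symbol for 5 of the 9 members, which have 6 windows among them. IRF3, IRF7, IFNAR2 and USP18 had no window. The ISRE core was searched as GAAANNGAA or TTCNNTTTC and the GAS as TTCNNNGAA, on both strands. A second spacing of the ISRE, GAANNGAAA or TTTCNNTTC, was added after the windows had been read, and can overlap the ISRE core. The sequences run 5′ to 3′ on the strand of the gene, and capitals mark the match.
IRF9 (chr14:24161015-24161264, plus strand): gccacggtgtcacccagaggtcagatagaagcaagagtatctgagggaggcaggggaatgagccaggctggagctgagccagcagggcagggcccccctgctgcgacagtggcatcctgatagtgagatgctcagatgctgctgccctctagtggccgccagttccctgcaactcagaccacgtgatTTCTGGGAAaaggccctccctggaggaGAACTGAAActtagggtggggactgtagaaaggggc
IRF1 (chr5:132490774-132491023, minus strand): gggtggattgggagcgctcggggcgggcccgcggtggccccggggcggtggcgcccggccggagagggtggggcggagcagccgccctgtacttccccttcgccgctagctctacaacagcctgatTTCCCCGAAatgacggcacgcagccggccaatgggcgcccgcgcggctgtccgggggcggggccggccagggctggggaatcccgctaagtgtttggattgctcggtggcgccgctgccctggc
SOCS1 (chr16:11256205-11256454, minus strand): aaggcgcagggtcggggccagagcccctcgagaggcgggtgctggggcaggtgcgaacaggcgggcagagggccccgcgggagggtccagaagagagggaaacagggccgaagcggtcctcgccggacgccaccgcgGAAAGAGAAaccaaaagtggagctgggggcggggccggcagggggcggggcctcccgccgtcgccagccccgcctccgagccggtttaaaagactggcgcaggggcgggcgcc

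The IRF9 window held the GAS letters TTCTGGGAA starting 63 bases before the start and the added spacing GAACTGAAA at 36 bases. IRF1 held the GAS letters TTCCCCGAA at 124 bases, and SOCS1 the ISRE core GAAAGAGAA at 113 bases. The windows of STAT2 and IFNAR1 held none of these letters. Among all 35114 RefSeq windows of this length, 6.88% held the ISRE core, 6.57% the GAS and 6.56% the added spacing. A list of 34 interferon-stimulated genes was used throughout for comparison, and 29 of them had a window; the ISRE core stood in 21 of these 29 genes (72.4%), the GAS in 8 (27.6%) and the added spacing in 15 (51.7%). A listed gene was counted if any of its windows matched, whereas the shares of all RefSeq windows count each window singly. The percentages are therefore not directly comparable. Such a match describes the letters in the window and is no proof of a bound site.

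The libraries held between 9884124 and 24983573 counts in genes. The 7SL RNA RN7SL1 took 6.02% to 17.9% of them, with the highest shares in OA replicate 2 and TN replicate 1. Levels are given as CPM, the counts of a gene scaled to a common library size, after TMM scaling of all 12 libraries together, and 3 counts corresponded to 0.128 to 0.31 CPM. The 6 epithelial markers had a summed level of 3939 to 7714 CPM per library, although VIL1, among them, did not exceed 0.28 CPM. The 6 leukocyte markers summed to at most 1.14 CPM. The 3 fibroblast markers summed to at most 11.5 CPM (in OA) and the 2 endothelial markers to at most 1.45 CPM. In bulk RNA, fewer cells expressing a gene and less RNA of it per cell cannot be told apart. Libraries TN 2, TN 3, TNctrl 2 and TNctrl 3 stood apart from TN 1 and TNctrl 1 in interferon-related genes, as described further on, and the TN comparison of the members is also given without the libraries numbered 1.

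**Figure D1:**
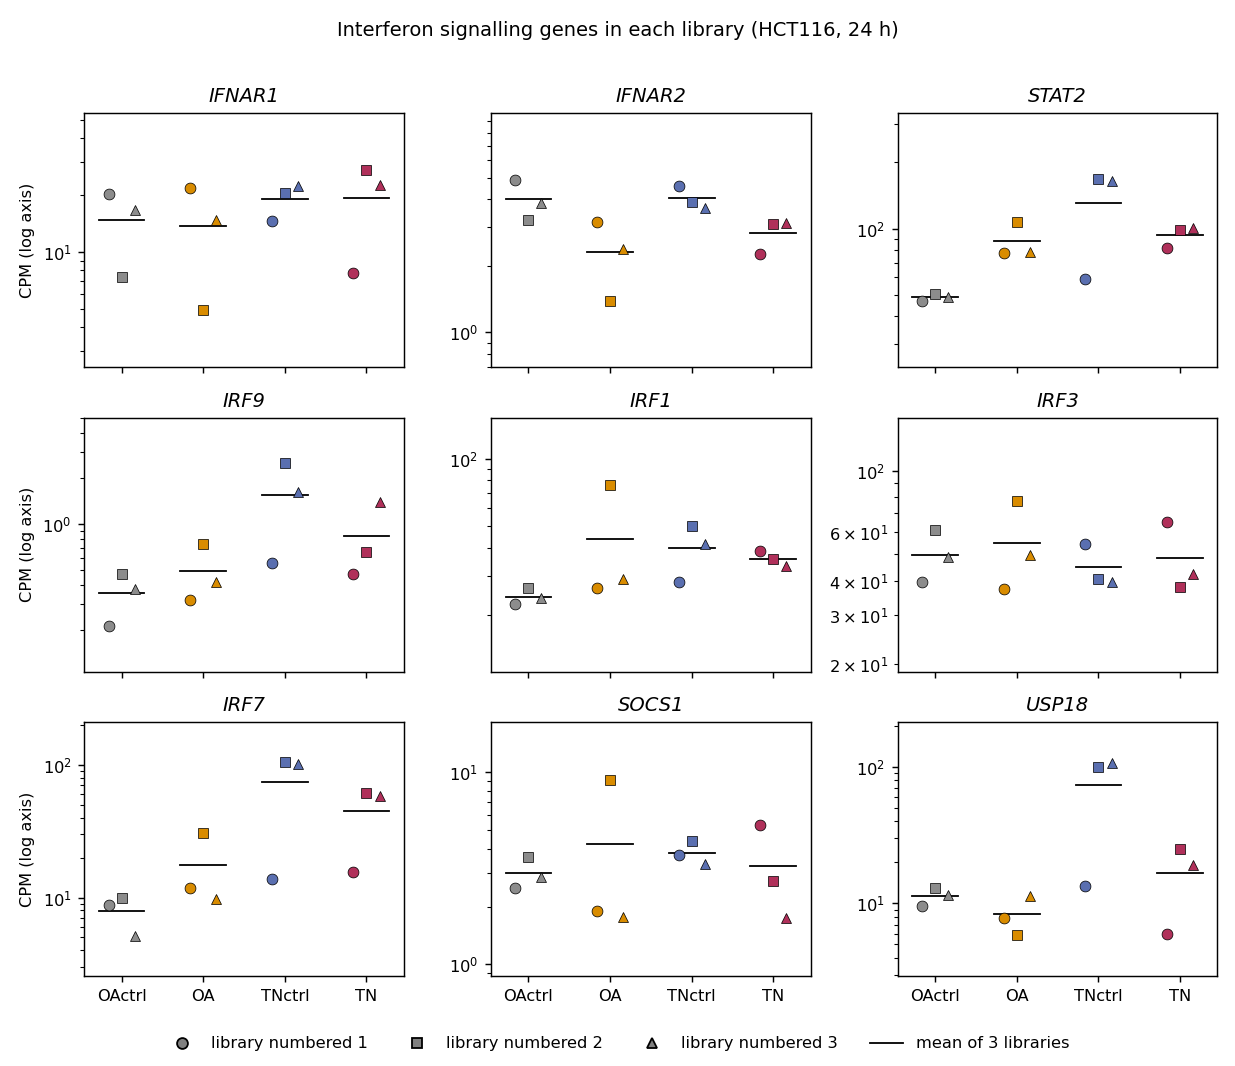
Level of each of the 9 genes in every library, in CPM on a log axis, by group; marker shape gives the library number and the line is the mean of 3 libraries. For STAT2, IRF7 and USP18 the libraries numbered 2 and 3 of TNctrl lie far above all libraries of the OA experiment and above TNctrl 1.

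IFNAR1, the low-affinity chain of the receptor (chr21:33324387-33359864, plus strand, hg38), did not separate treated from control libraries. Its level was 20.2, 7.37 and 16.7 CPM in OActrl libraries 1, 2 and 3 and 21.8, 4.92 and 14.7 CPM in OA. In the TN experiment it was 14.6, 20.5 and 22.4 CPM with DMSO and 7.76, 27.2 and 22.7 CPM with TN. The lowest libraries were replicate 2 of both OA groups and replicate 1 of both TN groups, so the spread followed the library number more than the treatment. The log2 fold change was -0.07 ± 0.54 (SE) with OA and -0.03 ± 0.42 with TN, with adjusted p-values of 0.953 and 0.972 (edgeR).

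IFNAR2, the chain that binds interferon with high affinity (chr21:33205282-33265675, plus strand), was the only member below its controls without overlap in both experiments. It was present at 4.91, 3.24 and 3.86 CPM (92, 76 and 72 counts) in OActrl and at 3.15, 1.39 and 2.38 CPM (40, 15 and 23 counts) in OA. With DMSO in the TN experiment it stood at 4.60, 3.88 and 3.67 CPM, and with TN at 2.27, 3.08 and 3.12 CPM. The log2 fold changes of -0.74 ± 0.40 (SE) for OA and -0.52 ± 0.28 for TN did not pass the threshold of 0.05 (edgeR, adjusted p = 0.307 and 0.308). Of its exon bases, 14.7% overlap the readthrough gene IFNAR2-IL10RB on the same strand, where STAR leaves reads that match more than 1 gene uncounted.

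STAT2 (chr12:56341597-56360203, minus strand), the STAT of the ISGF3 complex that is specific to type I and III interferons, had a higher level in all OA libraries than in any OActrl library. Its level was 46.8, 50.6 and 49.1 CPM in OActrl and 77.2, 107 and 78.2 CPM in OA, which gave group means of 48.8 ± 1.89 and 87.5 ± 17.0 CPM (SD, n = 3). The log2 fold change was 0.93 ± 0.26 (SE). Its adjusted p over 14681 genes was 0.0782 (edgeR), so it did not pass. The adjusted p lay between 0.007 and 0.305 over 16 alternative settings and was under 0.05 in 5 of them, among them DESeq2 with 0.0152. In the TN experiment the DMSO libraries held 59.0, 168 and 164 CPM and the TN libraries 81.7, 99.1 and 101 CPM, so that TN 1 was above TNctrl 1 while TN 2 and TN 3 were below their same-numbered controls. The log2 fold change with TN was -0.49 ± 0.40 (edgeR, adjusted p = 0.501).

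IRF9 (chr14:24161234-24168043, plus strand), the DNA-binding subunit of ISGF3, was low in most libraries. It had 4, 11 and 7 counts in OActrl and 4, 8 and 4 in OA, too few for the OA test. In the TN experiment it had 10, 46 and 23 counts with DMSO (0.554, 2.51 and 1.62 CPM) and 5, 7 and 16 counts with TN (0.473, 0.654 and 1.39 CPM). It passed the filter on low counts there because 3 of the 6 libraries reached the minimum. The log2 fold change was -0.91 ± 0.68 (SE), with an adjusted p of 0.47 (edgeR). Of the IRF9 exon bases, 23.9% lie in a readthrough gene on the same strand, and 8.05% overlap an antisense RNA. Whether the deposited counts used the strand is not given in the sources used here, so for IRF9 the low level may be a lower bound.

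IRF1 (chr5:132440440-132508719, minus strand), an early interferon- and NF-κB-responsive factor, was high in 1 OA library. The OActrl libraries had 22.4, 26.5 and 23.8 CPM and the OA libraries 26.4, 76.2 and 29.1 CPM. With the log2 fold change at 0.97 ± 0.45 (SE) the adjusted p was 0.24 (edgeR), and without OA replicate 2 the log2 fold change was 0.22. This library also held the highest RN7SL1 share (17.9%), and its deviations correlated with GC content (r = 0.459 across genes). With a GC-dependent offset the log2 fold changes were 0.87 for IRF1, 1.15 for IRF7 and 0.56 for SOCS1, against 0.97, 1.25 and 0.63 without it. Those of STAT2 and IRF3 went from 0.93 to 0.88 and from 0.25 to 0.15. IFNAR1 went from -0.07 to 0.15, IFNAR2 from -0.74 to -0.54 and USP18 from -0.38 to -0.12. The parts of GC content and of the RN7SL1 share were not tested. In the TN experiment IRF1 was 28.1, 50.2 and 41.7 CPM with DMSO and 38.7, 35.5 and 33.2 CPM with TN, and the log2 fold change of -0.16 ± 0.28 had an adjusted p of 0.775. The antisense gene IRF1-AS1 overlaps 22.9% of the IRF1 exon bases.

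IRF3 (chr19:49659569-49665875, minus strand), the constitutive factor that is activated by phosphorylation, overlapped between treated and control libraries in both experiments. It measured 39.5, 60.8 and 48.5 CPM in OActrl and 37.4, 77.9 and 49.4 CPM in OA. The TNctrl libraries had 54.0, 40.5 and 39.6 CPM and the TN libraries 65.3, 37.9 and 42.1 CPM. The log2 fold changes were 0.25 ± 0.35 (SE) and 0.14 ± 0.30, with adjusted p-values of 0.695 and 0.816 (edgeR). BCL2L12 on the other strand overlaps 19.3% of the IRF3 exon bases.

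IRF7 (chr11:612553-615983, minus strand), which is induced by interferon and amplifies its production, had the largest log2 fold change among the members tested with OA, yet its groups overlapped. It reached 8.81, 9.88 and 5.10 CPM in OActrl and 11.8, 30.9 and 9.73 CPM in OA. Each OA library was above the control of its number, although the OA numbers were not taken as pairs. The log2 fold change was 1.25 ± 0.52 (SE; edgeR, adjusted p = 0.198). Without OA replicate 2 it was 0.46. In the TN experiment IRF7 was 13.7, 105 and 102 CPM with DMSO and 15.7, 61.4 and 58.5 CPM with TN. Libraries 2 and 3 were the high ones in both groups, and within these numbers the TN library was the lower one. The log2 fold change was -0.76 ± 0.76 (edgeR, adjusted p = 0.596), and it lay between -1.21 (without TNctrl 1) and -0.31 (without TN 1) when a library was left out.

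SOCS1 (chr16:11254417-11256204, minus strand), the inhibitor of JAK kinases, had low levels with a wide spread. It stood at 2.51, 3.62 and 2.84 CPM (47, 85 and 53 counts) in OActrl and at 1.89, 9.09 and 1.76 CPM (24, 98 and 17 counts) in OA. OA replicate 2 alone was above the controls, and without it the log2 fold change moved from 0.63 ± 0.67 (SE; edgeR, adjusted p = 0.597) to -0.69. The levels were 3.71, 4.37 and 3.32 CPM with DMSO and 5.30, 2.71 and 1.74 CPM with TN, which gave -0.20 ± 0.47 (adjusted p = 0.84).

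USP18 (chr22:18150118-18177397, plus strand), the deISGylase and receptor-level inhibitor, was the member with the largest difference between TN and its controls. With DMSO it was present at 13.5, 100.3 and 107 CPM (243, 1836 and 1511 counts), and with TN at 5.96, 24.9 and 19.1 CPM (63, 266 and 220 counts). Every TN library was below the DMSO library of its number, at 0.443, 0.248 and 0.179 of its level, but TN 2 and TN 3 were above TNctrl 1. TNctrl 1 stood far below the other controls, and the log2 fold change of -2.20 ± 0.79 (SE) did not pass (edgeR, adjusted p = 0.142). Same-numbered TN and TNctrl libraries deviated together across genes, and with the library number in the fit USP18 fell by 1.96 on the log2 scale (SE 0.28, adjusted p = 0.00205). With OA, USP18 had 9.56, 13.0 and 11.5 CPM in the controls and 7.81, 5.85 and 11.4 CPM in treated cells, a log2 fold change of -0.38 ± 0.32 (adjusted p = 0.512) that lay between -0.68 (without OA 3) and -0.23 (without OA 2) when a library was left out. Its near-identical copy USP41 never exceeded 8 counts, and reads shared by the copies could have been lost from both.

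**Figure D2:**
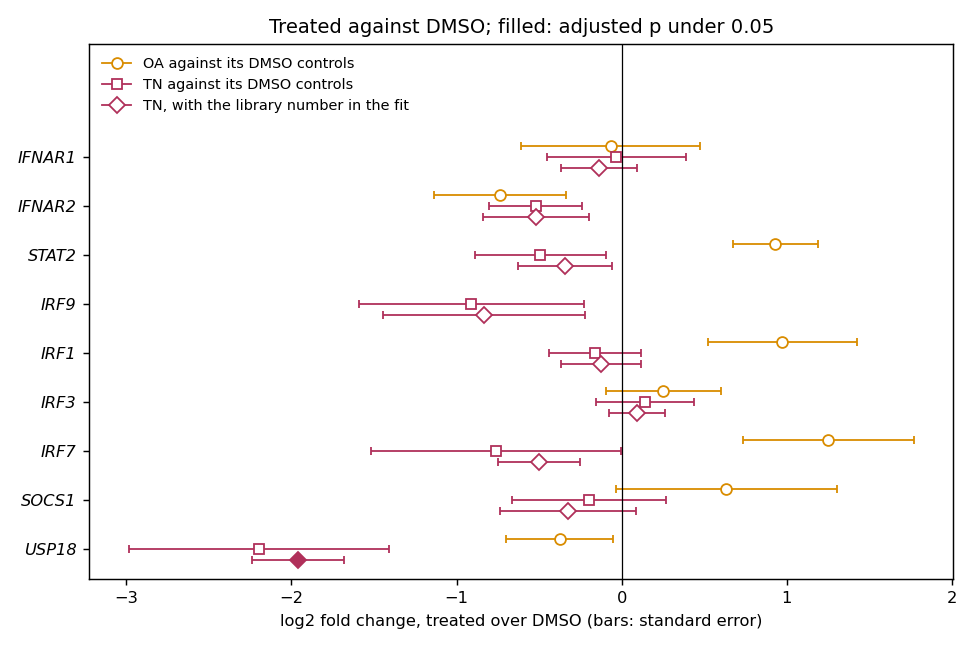
The log2 fold change of each gene over its DMSO controls with its standard error, for OA, for TN and for TN with the library number in the fit; IRF9 was not tested with OA, and filled symbols mark an adjusted p under 0.05. USP18 in the TN fit with the library number, at -1.96, is the filled one. The OA fit with the library number is not drawn. In it STAT2 (0.90) and IRF7 (1.09) passed (edgeR, adjusted p = 0.0102 and 0.025).

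Counted over the members, 0 of the 8 tested with OA and 0 of the 9 tested with TN had an adjusted p under 0.05 in edgeR, where 4.48% (2.76% higher, 1.72% lower) and 6.99% (3.65% higher, 3.34% lower) of all genes tested did. At an unadjusted p under 0.05, 2 members passed with OA (STAT2 and IRF7) and 1 with TN (USP18), beside 23.3% and 24.3% of all genes, and DESeq2 called 1 member with OA (STAT2) and 1 with TN (USP18), beside 13.1% and 15% of all genes. With the library number in the TN fit, 1 of 9 members was called, USP18, against 27.1% of all genes. Same-numbered OA and OActrl libraries deviated together for numbers 1 and 2 (r = 0.627 and 0.542) but hardly for number 3 (0.0907). The OA numbers were therefore not taken as pairs, and a fit with them called STAT2 and IRF7 among 26.7% of all genes. Groups of libraries did not overlap for STAT2 (higher) and IFNAR2 (lower) with OA, while 14.6% of all genes were higher and 17.4% lower in this way. IFNAR2 alone did so with TN, where 15.7% of genes were higher and 17.6% lower without overlap. The median log2 fold change of the members tested was 0.44 with OA and -0.49 with TN, beside -0.02 and -0.03 over all genes. Both medians depend on single libraries. Without OA replicate 2 the 8 members with OA lay between -0.69 (SOCS1) and 0.69 (STAT2). STAT2, the median member with TN, stood at -0.25 without TNctrl replicate 2. The direction of the calls over all genes depended on the scaling. With OA, 405 genes were higher and 253 lower, but 352 and 395 with scaling to total counts and 1341 and 84 with scaling to ACTB; with TN the numbers were 527 and 482, then 529 and 875, then 1198 and 220. Under these scalings the median gene stood at a log2 fold change of -0.23 and 0.42 with OA and of -0.18 and 0.30 with TN. Relative to them, STAT2 with OA, IFNAR2 in both experiments and USP18 with TN kept their directions.

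The effects of the stressors were compared with each other in a fit of all 12 libraries. The OA effect minus the TN effect was positive for 7 of the 9 members, with 1.32 ± 0.47 (SE, log2) for STAT2, 1.84 for IRF7 (1.14 without OA replicate 2) and 1.69 for USP18. Unadjusted p-values were 0.0153 for STAT2, 0.0907 for IRF7 and 0.0883 for USP18, and the adjusted p was 1 for all 9. In this comparison edgeR called 0 of 15429 genes (0%) while DESeq2 called 2, and 348 genes (2.26%) had an unadjusted p under 0.05. At these settings a difference between the responses to OA and TN was therefore not shown for any member. Under 1 of 19 alternative settings, the fit with no filter, IRF7 passed (edgeR, adjusted p = 0.0291).

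Within library numbers, the members moved as follows. The OA numbers were not taken as pairs, so for OA these differences are a description only. STAT2 was higher with OA in every number, by 0.72, 1.08 and 0.67 on the log2 scale for numbers 1, 2 and 3, and IRF7 by 0.42, 1.63 and 0.91. IRF1 was higher by 0.24, 1.52 and 0.29. IFNAR2 was below its control in every number, with log2 differences of -0.62, -1.14 and -0.67. With TN the direction depended on the number for 6 of the 9 members. STAT2 had differences of 0.47, -0.76 and -0.71, IRF7 of 0.19, -0.77 and -0.80, and IRF1 of 0.46, -0.50 and -0.33, so that in each case number 1 was positive and numbers 2 and 3 negative. USP18, at -1.16, -2.01 and -2.47, was negative in all, as were IFNAR2 and IRF9.

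**Figure D3:**
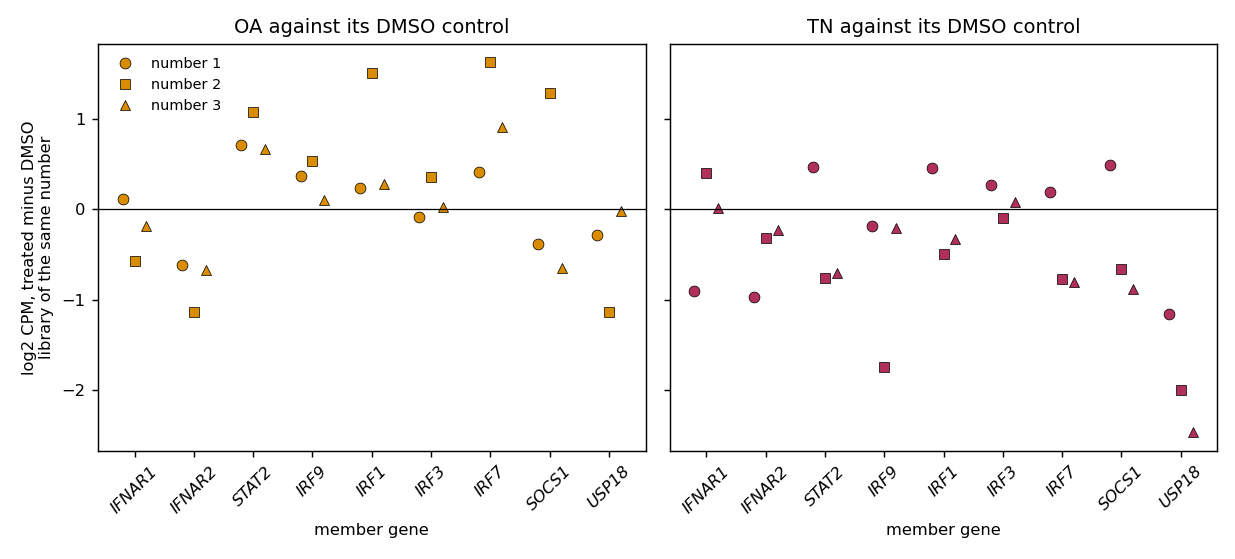
Difference in log2 CPM between the treated and the DMSO library of the same number, for OA (left) and TN (right); marker shape gives the number. With TN, STAT2, IRF1, IRF7 and SOCS1 are above 0 for number 1 and below 0 for numbers 2 and 3, while USP18 is below 0 for all.

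The TN and TNctrl libraries numbered 2 and 3 had higher levels of IRF7 and USP18 than those numbered 1, and of STAT2 mainly with DMSO. This split was proposed with results of these data known and is given as a description with no test. IRF7 was higher by 2.90 (log2, 7.49-fold) with DMSO and by 1.92 (3.79-fold) with TN. The corresponding values for USP18 were 2.93 (7.62-fold) and 1.85 (3.60-fold). STAT2 was 1.49 higher (2.81-fold) with DMSO but only 0.29 (1.22-fold) with TN, and IRF9 1.65 and 0.85. IFNAR1 was higher by 0.55 and 1.66, whereas IRF3 had differences of -0.43 and -0.71. IRF1, IFNAR2 and SOCS1 overlapped between the numbers. Without overlap, 5 of 9 members were higher in numbers 2 and 3 and 1 was lower, where 20.9% of all genes tested were higher and 17.7% lower. IRF9, 1 of the 5, had passed the filter on low counts through libraries numbered 2 and 3 alone, so it lends no support to the split. In the OA experiment IRF7 ranged from 5.10 to 30.9 CPM and USP18 from 5.85 to 13.0 CPM over all 6 libraries.

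**Figure D4:**
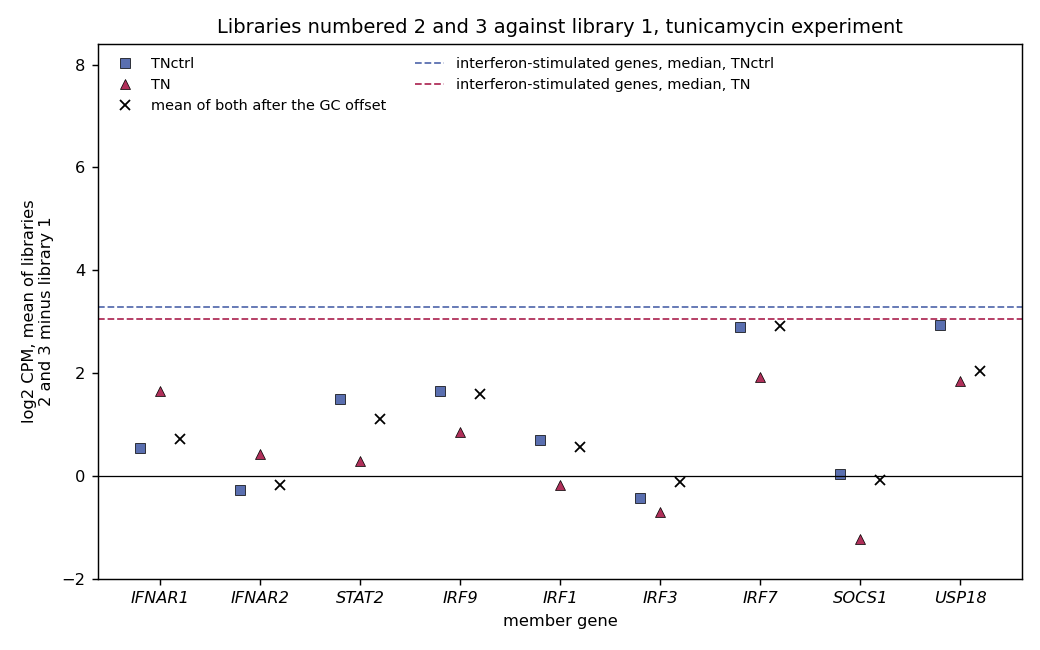
Mean log2 CPM of libraries 2 and 3 minus library 1 in the tunicamycin experiment, for TNctrl (squares) and TN (triangles), with the mean of both after correction for GC content (crosses); dashed lines give the median of 20 interferon-stimulated genes that reached the count minimum in both libraries numbered 1, at 3.29 and 3.04. IRF7 and USP18 have the largest differences among the members.

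Base composition moved with the same split. The deviation of genes in a library correlated with the GC content of their longest transcript across 13064 genes, with r = 0.277 in TNctrl 1 and 0.641 in TN 1, and between -0.306 and -0.419 in the other 4 libraries of this experiment. The longest transcript of IRF3 has 59% GC and that of IFNAR1 42.9%. When each library was given a GC-dependent offset, the mean difference between numbers became -0.12 for IRF3, 0.73 for IFNAR1 and 1.11 for STAT2. It was 2.92 for IRF7 and 2.04 for USP18, against 2.41 and 2.39 without the offset. GC content moved with the library number in these libraries, so the offset cannot tell them apart. The cause was not tested.

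The interferon genes were detected mainly in libraries numbered 2 and 3, and 4 of them (IFNB1, IFNL1, IFNL2 and IFNL3) passed the filter on low counts through these libraries alone, so they are given as counts and lend no support to the split. IFNB1, the type I interferon made by epithelial cells, had 0 counts in TNctrl 1 and TN 1, 193 and 150 in TNctrl 2 and 3, and 20 and 26 in TN 2 and 3. Against a floor of 3 counts in TNctrl 1, the mean of TNctrl 2 and 3 was at least 63.6-fold higher. The type III interferon gene IFNL3 had 0 counts in both libraries numbered 1, 572 and 403 in TNctrl 2 and 3, and 75 and 62 in TN 2 and 3. IFNL2 likewise had 0 counts against 375 and 286 with DMSO and 30 and 46 with TN. IFNL1 had 0, 246 and 215 counts with DMSO and 5, 37 and 31 with TN. IFNL2 and IFNL3 are near-identical copies, so the split of reads between them is uncertain. Of the 22 ligand genes in the tables, 8 had more than 3 counts in any library, and in the 6 libraries of the OA experiment no ligand had more than 6 counts (IFNE).

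Genes that the STAT and IRF complexes switch on showed the same order of libraries. Of the 34 listed interferon-stimulated genes, 31 were higher in numbers 2 and 3 without overlap and 3 overlapped, where 20.9% of all genes tested were higher and 17.7% lower. Of these 34, 29 passed the filter on low counts, 6 of them through libraries numbered 2 and 3 alone, so their count is no support for the split. The 20 genes that reached the minimum in both libraries numbered 1 had a median difference of 3.29 (log2) with DMSO and 3.04 with TN, beside -0.09 and -0.01 over all genes tested. IFIT1, which binds foreign RNA, had 7.09, 914 and 1007 CPM in TNctrl libraries 1, 2 and 3 and 2.37, 256 and 286 CPM in TN. IFI6 had 12.3, 562 and 519 CPM with DMSO and 12.8, 319.9 and 282 CPM with TN. LGALS3BP and IFITM3, the other genes of the list with the highest mean counts, differed less. With DMSO they had 295, 729 and 646 CPM and 60.7, 206 and 201 CPM. Their levels in numbers 2 and 3 were higher by 1.22 and 1.74 (log2) with DMSO, but by only 0.31 and 0.74 with TN. ISG15, the ubiquitin-like protein that USP18 removes, stood at 230.5, 2504 and 2516 CPM with DMSO and at 254, 1060.0 and 1124 CPM with TN. With OA, edgeR called 0 of the 25 listed genes tested, where it called 4.48% of all genes. At an unadjusted p under 0.05 there were 4 (23.3% of all genes) and by DESeq2 4 (13.1% of all genes), and their median log2 fold change was -0.02.

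Against TN treatment, 28 of 29 listed interferon-stimulated genes had a negative log2 fold change, with a median of -1.23. Over all 14432 genes tested, 7487 were negative and the median was -0.03. Of the listed genes edgeR called 0, where it called 6.99% of all genes. At an unadjusted p under 0.05 there was 1 (24.3% of all genes) and by DESeq2 0 (15% of all genes). With the library number in the fit, 18 of the 29 fell, where 15.3% of all genes did. Of the 29, 6 passed the filter on low counts through libraries numbered 2 and 3 alone. Of these, CMPK2, IFI44, IFI44L, IFITM1 and RSAD2 were among the 18, so the count rests partly on libraries where such genes were high. When both libraries numbered 1 were left out, a choice made after seeing the data that leaves 2 TN libraries against 2 controls, USP18, IRF7, STAT2 and IRF1 fell, with log2 fold changes of -2.25, -0.80, -0.75 and -0.44 (edgeR, adjusted p = 5.09e-14, 8.03e-08, 3.45e-08 and 0.0052). These p-values measure only the spread within numbers 2 and 3, which were far more alike than other pairs: the chi-square per gene between them was 6.78 with DMSO and 5.92 with TN, against 63.1 to 98.9 for their pairs with number 1. The libraries were also kept with the levels of these genes known. The other members had -1.02 (IRF9, adjusted p = 0.155), -0.81 (SOCS1, 0.108), -0.30 (IFNAR2, 0.543), 0.20 (IFNAR1, 0.291) and -0.01 (IRF3, 0.935). Thus 4 of 9 members fell, where 22.6% of all genes fell and 42.8% were called in either direction. In the same libraries 19 of the 20 interferon-stimulated genes that reached the count minimum in both libraries numbered 1 fell, and of 39 other pathway genes 7 rose and 9 fell. STAT2, IRF7 and USP18 thus had their highest levels of all 12 libraries in TNctrl 2 and 3, which received DMSO and no stressor.

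Among 60 other genes of the pathway, 34 were tested with OA and 38 with TN. With OA, 2 of the 34 rose and 0 fell, where edgeR called 4.48% of all genes, and DESeq2 called 5 of the 34 and 13.1% of all genes. IRF2BP2, a corepressor partner of IRF2, was among them, with a log2 fold change of 1.28 ± 0.23 (SE; edgeR, adjusted p = 0.0297). IRF2BP2 also rose with TN, by 0.98 ± 0.19 (adjusted p = 0.0266), as the only 1 of 38 tested that edgeR called, where 6.99% of all genes were; DESeq2 called 7 of the 38 and 15% of all genes. It measured 22.2, 27.6 and 25.4 CPM in OActrl and 65.4, 56.9 and 51.0 CPM in OA, and 25.1, 27.6 and 24.3 CPM in TNctrl and 50.4, 50.0 and 51.4 CPM in TN, so the groups were well apart in both experiments.

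With the library number in the TN fit, 6 of the 38 other pathway genes rose and 6 fell, where 11.8% and 15.3% of all genes did. Those that rose included IRF2BP2, its relative IRF2BPL, the kinase JAK1 (log2 fold change 0.69, adjusted p = 0.00902), the interferon gamma receptor chain IFNGR2 (0.64, adjusted p = 0.0138) and SOCS7 (0.66, adjusted p = 0.0157). Those that fell included the kinase TYK2 (log2 fold change -0.57, adjusted p = 0.0415) and the inhibitor SOCS3 (-0.72, adjusted p = 0.0314). The 6 that fell include the ligands IFNB1, IFNL2 and IFNL3. These passed the filter through libraries numbered 2 and 3 alone and had 0 counts in both libraries numbered 1. Their calls rest on the libraries where they were high, so only their counts, given above, are reported. ISG15 had a log2 fold change of -0.77 (adjusted p = 0.09). Between library numbers, 18 of the 38 genes tested were higher in numbers 2 and 3 without overlap and 5 lower, where 20.9% and 17.7% of all genes tested were. Those higher include the ligands IFNB1, IFNL1, IFNL2 and IFNL3, which passed the filter through these libraries alone.

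The genes most like a member over the 12 libraries, taken as deviations from the mean of the 6 libraries of each stressor among 13741 genes, are given as a description. STAT2 was closest to HELZ2 (r = 0.975), HSH2D (0.96) and IFI35 (0.953). IRF7 was closest to OASL (0.939), CCL5 (0.914) and HELZ2 (0.912), and USP18 to SHFL (0.959), ETV7 (0.945) and PSMB9 (0.943). IRF3 was closest to DDX49 (0.993), PDXK (0.986) and ZNHIT2 (0.984). Among the members STAT2 and IRF7 were closest (0.884), and IRF3 and IFNAR1 were opposite (-0.976). These correlations share the libraries, their depth and their base composition.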

How the data were processed

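RNA of 12 HCT116 cultures was sequenced after a stranded total RNA preparation, although the study speaks of mRNA sequencing. Per the methods of the study, the authors checked reads with FastQC, aligned them to hg38 with STAR and took raw gene counts on Gencode annotation; the deposited count tables are unscaled. The column of STAR's strand choices that was deposited is not given in the sources used here. The deposited tables of the authors' own comparisons hold means, log2 fold changes, standard errors, statistics and p-values from DESeq2, and were not used.

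Counts were fitted with edgeR 4.0.16 (R 4.3.3): filterByExpr, TMM scaling and the two-sided quasi-likelihood test, for each stressor's 6 libraries and, for the difference of effects, for all 12. P-values were adjusted by the Benjamini-Hochberg method over all genes tested, with a threshold of 0.05. Log2 levels carry a prior count of 2. Alternatives were DESeq2 1.42.0, other scalings and filters, the library number as a block, all 12 libraries in 1 fit, leaving out each library, and, added after seeing the data, an offset for GC content per library and leaving out both TN-experiment libraries numbered 1. The scripts were tested on simulated data. The members, gene lists and the split by number were chosen with earlier results of these data known.

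Named were all members, pathway genes past the threshold or else at most 3 per role with the lowest p, and the 4 interferon-stimulated genes with the highest mean count. Some genes of the pathway list that this rule names are not reported here. Gene positions and overlaps come from Gencode on hg38, and promoter windows from RefSeq. Deviations from group means correlated between same-numbered TN and TNctrl libraries (r = 0.635, 0.404 and 0.423 across genes), so the numbers were taken as pairs; numbers 2 and 3 also correlated with each other (0.375 and 0.432). For OA the values were 0.627, 0.542 and 0.0907 and the numbers were not taken as pairs. Counting error covers sampling of reads only, since no molecular identifiers were used.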

Additional observations from a re-analysis of the deposited data

Results flagged for a closer look

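Both STAT2 and IRF1 had opposite directions with the stressors in all libraries when each treated library was set against the mean of its DMSO group, a difference that this comparison does not test. For STAT2 the OA effect minus the TN effect was 1.32 on the log2 scale and for IRF1 it was 1.02, or 0.35 without OA replicate 2. The test of the difference itself in edgeR gave an unadjusted p of 0.0153 for STAT2 and an adjusted p of 1 for both. TN 1 was above TNctrl 1, by 0.47 for STAT2 and 0.46 for IRF1. Against the mean of the DMSO group, IRF1 stood at 0.13, 1.65 and 0.27 (log2) in OA libraries 1, 2 and 3. In the TN libraries it stood at -0.0077, -0.13 and -0.23, so TN 1 was next to the control mean. The cause was not tested.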

How the results depend on the processing

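The number of genes called depended on the settings. With OA it was 658, and 1927 with DESeq2, 1425 with scaling to ACTB, 1572 with no filter, 1681 in 1 fit of all 12 libraries, 2199 with the GC offset, 3914 with the replicate block and 3691 with both. With TN it was 1009, and 2162 with DESeq2, 1648 with no filter, 2873 with the GC offset, 3915 with the replicate block, 4691 with both and 6267 without both libraries numbered 1. Leaving out a library gave 3 (without OActrl 2 or OActrl 3) to 1179 (without OA 1) with OA, with 5 without OActrl 1 and 91 without OA 3, and 151 (without TNctrl 3) to 2361 (without TN 1) with TN, with 473, 183, 301 and 310 without TNctrl 1, TNctrl 2, TN 2 and TN 3. The difference of effects had 0 calls, 2 with DESeq2, 25 with no filter, and 0 to 4 when a library was left out (4 without OA 2). For the split by number, 6 members did not overlap, and 6 to 8 when a library was left out. The cause was not tested.

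With the replicate block OA called STAT2 (0.90, adjusted p = 0.0102) and IRF7 (1.09, adjusted p = 0.025), as the GC offset with the block also did; the block moved no other OA member past the threshold. STAT2 also passed with OA under DESeq2 (0.94), scaling to ACTB (1.38) and the GC offset (0.88). With TN the block called USP18 and no other member, and the GC offset with the block called USP18 and IRF7 (-0.61). USP18 also passed under DESeq2 (-2.15) and with no filter (-2.18). For the difference of effects, IRF7 passed with no filter (1.99).

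Signs turned for members not called at the reported settings. ACTB moved the median gene to 0.42 with OA and 0.30 with TN and total counts to -0.23 and -0.18, so the turns under these scalings, other than IFNAR1 with TN, are the shift of all genes and no change of direction relative to it. With OA these were IRF3 at -0.0308 with total counts, IFNAR1 at 0.29 and USP18 at 0.10 with ACTB, and IFNAR1 at 0.15 with the GC offset, with and without the block. With TN they were IFNAR1 at 1.47e-05 with DESeq2 size factors, 0.0026 in 1 fit, 0.32 with ACTB, 0.0547 with the GC offset, 0.0133 with the block added and 0.20 without both libraries numbered 1; IRF3 at -0.0516 with total counts, -0.0044 with the GC offset and block and -0.0148 without those libraries; and IRF1 at 0.10 and SOCS1 at 0.0454 with ACTB. In the split, IFNAR2 was -0.28 and SOCS1 0.0364 in DMSO alone, IRF1 -0.17 in TN alone, and IFNAR2 -0.18 with the GC offset.

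Leaving out a library gave, with OA, -0.17 to 0.48 for IRF3, -0.51 to 0.34 for IFNAR1, -0.99 (without OA 1) to -0.49 (without OActrl 1) for IFNAR2 and -0.69 to 1.00 for SOCS1. With TN it gave -0.84 to -0.25 for STAT2 (without TNctrl 1 and TNctrl 2), -1.47 to -0.35 for IRF9 (without TN 3 and TNctrl 2), -0.38 to 0.0366 for IRF1, -0.17 to 0.32 for IRF3, -0.35 to 0.37 for IFNAR1 and -0.79 to 0.0656 for SOCS1. The difference of effects was 0.35 (without OA 2) to 1.36 for IRF1, -0.31 to 0.46 for IRF3, -0.60 to 0.30 for IFNAR1, -0.58 (without OA 1) to -0.01 (without OA 2) for IFNAR2, 0.90 (without OA 2) to 2.01 (without TN 3) for IRF9 and -0.48 to 1.45 for SOCS1, and the split -0.17 to 0.70 for IRF1, -0.28 to 0.43 for IFNAR2 and -1.24 to 0.0364 for SOCS1. IRF9 had as few as 4 counts in a library, IFNAR2 15 and SOCS1 17.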
